A study of Mus musculus with 12 samples.

Results

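The matrix metalloproteases (Mmp), the ADAMTS proteases (Adamts) and their tissue inhibitors (Timp) were followed in fetal mouse gonads in which the ovarian transcription factor FOXL2 had been switched on in XY somatic cells. Members were all rows of the deposited array table whose platform gene symbol was Mmp, Adamts or Timp followed by a number and at most 1 letter. This gave 44 genes (22 Mmp, 18 Adamts and 4 Timp) of 30702 named genes in all, each with 1 transcript cluster, which is the array's unit for a locus. The RefSeq table of gene names holds 46 genes of these families, and Adamts2 and Mmp15 were not analysed here.

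Mmp genes encode zinc proteases that are made as inactive precursors, and most are secreted while the membrane-type enzymes stay anchored at the cell surface. ADAMTS proteins are secreted zinc proteases with thrombospondin repeats that bind the matrix, and several of them cut large proteoglycans such as versican. TIMP proteins bind and block the active enzymes. In the fetal gonad these families act on the matrix between the somatic cells, including the basement membrane that surrounds the testis cords.

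Each array held RNA from the gonads of 1 embryo at 14.5 days post coitum, dissected away from the mesonephros. XY control and XX control gonads were Rosa26+/+; Sf1-Cre+/Tg. The XY FOXL2+ gonads carried Rosa26-CAG-LSL-Foxl2+/f together with Sf1-cre+/Tg. There Cre, made in the cells that use the Sf1 promoter, opens a Foxl2 allele under the CAG promoter. Every embryo therefore carried the Cre, the background was a mix of 129Sv and C57Bl/6J, and 4 arrays were made per group. These were whole gonads, in which fewer cells of a type and less RNA per cell cannot be told apart.

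The arrays followed their labels in Foxl2 signal, but those of XY FOXL2+ differed among themselves. Foxl2 read 5.35 ± 0.21 in XY control, 7.55 ± 0.81 in XY FOXL2+ and 7.48 ± 0.42 in XX control (log2 signal, SD, n = 4). Nr5a1, the gene of SF1, read 13.39 ± 0.09, 11.71 ± 0.08 and 12.15 ± 0.03 in the same order. It was thus present at 11.6 or more on every array, but its mean was lowest in XY FOXL2+ and highest in XY control. On the first principal component (51.5% of the variance) XY control lay at -66.3 to -59.9 and XX control at 55.8 to 61.6. XY FOXL2+ replicates 1 and 2 were nearer XX control (20.3 and 39.1) and replicates 3 and 4 nearer XY control (-21.3 and -23.1). Means of XY FOXL2+ therefore average unlike arrays. XY FOXL2+ replicate 1 stood apart on the second principal component (-76.9 against -22.1 to 22.6 elsewhere) and XY FOXL2+ replicates 3 and 4 on the third (-49.7 and -44.2 against -12.7 to 35.6). Marker lists for the cell types of the gonad moved with the groups. The mean log2 signal of 10 Sertoli genes was 11.04 to 11.29 in XY control, 8.03 to 9.72 in XY FOXL2+ and 7.40 to 7.47 in XX control, and 8 of the 10 were lower in XY FOXL2+ than in XY control. Over 5 interstitial progenitor genes (3 lower, 1 higher) the ranges were 12.07 to 12.31, 11.00 to 11.80 and 10.58 to 10.93 in the same order, and over 7 myoid and smooth muscle genes (5 lower) they were 9.59 to 9.95, 8.86 to 9.13 and 8.75 to 9.15. The ranges of 9 endothelial genes (3 higher) were 9.49 to 9.74, 9.757 to 10.001 and 9.38 to 9.66, and those of 10 macrophage genes (4 higher) were 6.80 to 7.0, 7.11 to 7.24 and 6.79 to 7.0. For 6 fetal Leydig genes (5 lower) the ranges were 13.89 to 14.14, 8.08 to 10.26 and 8.02 to 8.20, which is the widest shift of the 11 lists. For 10 fetal granulosa genes (5 higher) they were 7.28 to 7.34, 7.82 to 9.45 and 9.77 to 10.03, and for 8 mesonephric tubule genes (1 higher, 2 lower) 7.13 to 7.49, 7.34 to 8.05 and 8.21 to 8.48. The mean signals of the lists for germ cells and erythroid cells overlapped between all groups. Single germ cell genes still moved both ways. Of 10, 1 was higher and 2 lower in XY FOXL2+, and 3 higher and 3 lower in XX control, both against XY control. The ranges of 4 neural crest and glial genes were 7.33 to 7.54, 7.19 to 7.65 and 6.65 to 6.83. The part of these shifts in the differences given below was not tested.

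Signals are relative and come from different probes for each gene, so that only the same gene was compared between groups. The table has no detection calls. As a guide, 4 Y-linked genes (Eif2s3y, Uty, Kdm5d and Uba1y), which XX gonads lack, read 5.99 to 6.94 on average in XX control. These means lie above the medians of the background control probe sets, which were 3.99 to 4.17 over the arrays. The cluster named Sry was left out of this guide, since it read alike in every group (9.39, 9.46 and 9.43), so that a higher signal is no proof of a transcript either. In 22 of the 44 genes all 3 group means lay below 6.94, the highest of the 4 Y-linked means, and for these a signal above background is not shown. They include 10 neighbouring Mmp genes on chromosome 9, which follow each other in the RefSeq gene order with no other protein-coding gene between them (Mmp13, Mmp12, Mmp1b, Mmp3, Mmp1a, Mmp10, Mmp8, Mmp27, Mmp20 and Mmp7). Their group means were 4.44 to 5.40, and over 30 tests of these 10 genes the largest difference was 0.21 on the log2 scale, with 1 call, Mmp8. The gelatinase Mmp9 read 5.28, 5.15 and 5.11 in XY control, in XY FOXL2+ and in XX control.

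**Figure D1:**
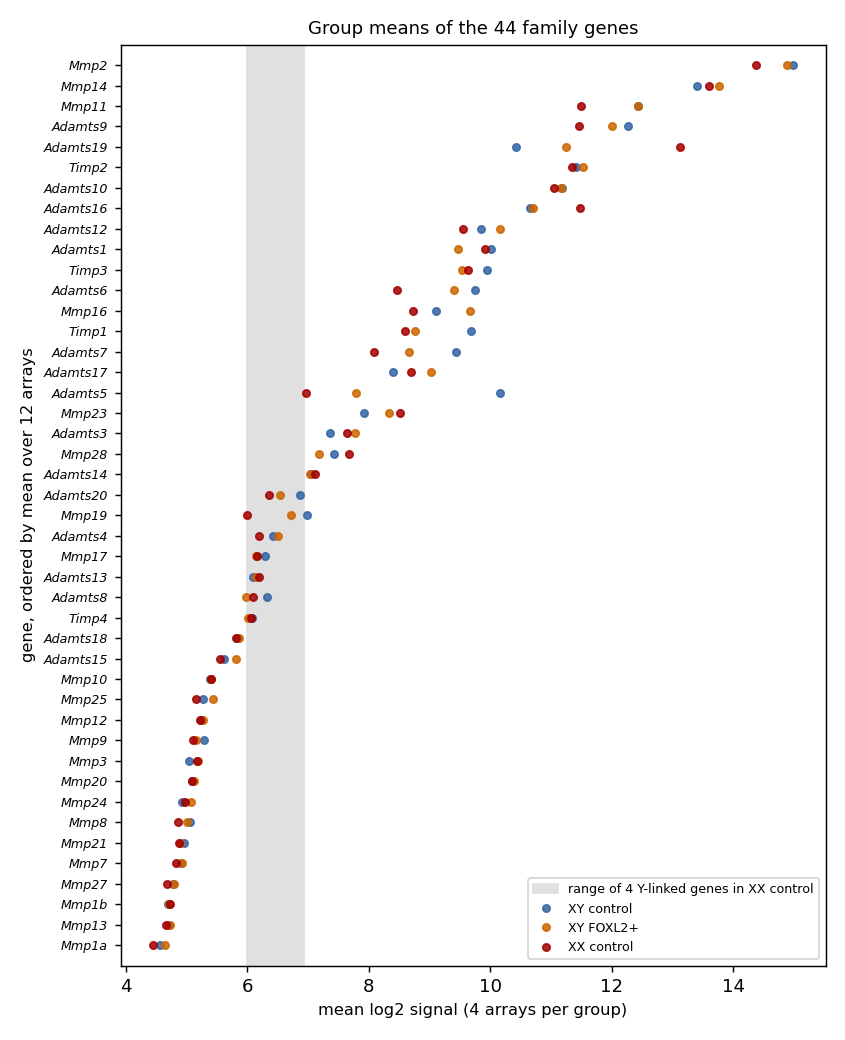
Mean log2 signal of each of the 44 genes in the 3 groups of 4 arrays, with genes ordered by their mean over all 12 arrays and the grey band marking the range of 4 Y-linked genes in XX control. The points of most genes lie close together, Adamts5 and Adamts19 show the widest spread between groups, and 22 genes have all 3 means below 6.94.

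In XY FOXL2+ gonads 7 of the 44 genes fell and 2 rose against XY control. Together 20.5% were called, beside 7.12% of all 65956 clusters tested (4.67% lower, 2.46% higher) and 11.9% of clusters above the median signal. A gene is called when its p-value, adjusted over all clusters, is under 0.05. The genes that fell were Adamts5, Timp1, Adamts7, Adamts1, Timp3, Adamts20 and Adamts8, and those that rose were Adamts19 and Adamts17. All were Adamts or Timp genes. None of the 22 Mmp genes was called by limma, although 7 had an unadjusted p under 0.05 and up to 2 were called under other settings. A count of 0 of 22 is near the 7.12% called over all clusters. Most Mmp genes also read at levels where a signal above background is not shown. No contrast between the families can be read from these counts. In the sex difference, 12 genes were lower and 4 higher in XX control than in XY control (36.4%, beside 17.4% of all clusters, 10.2% lower and 7.17% higher, and 28.6% of those above the median signal). In XY FOXL2+ against XX control, 7 were higher and 4 lower (25%, beside 5.51% of all clusters, 2.87% higher and 2.64% lower, and 9.33% of those above the median signal). Calls of 2-fold or more numbered 1, 5 and 1 in the same order, beside 1.68%, 4.32% and 1.48% of all clusters, and their genes were Adamts5, then Adamts5, Adamts6, Adamts7, Adamts19 and Timp1, then Adamts19. Both XY FOXL2+ comparisons share arrays with the sex difference, so their counts are not independent of each other.

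Medians over the 44 genes were small, at 0.02, -0.10 and 0.11 on the log2 scale for XY FOXL2+ minus XY control, XX control minus XY control and XY FOXL2+ minus XX control, beside 0.0031, -0.03 and 0.03 over all clusters. Arrays of the compared groups did not overlap in 12, 18 and 18 of the 44 genes in the same order, beside 12.2%, 25.4% and 11.5% of all clusters. With quantile normalization, 6 genes fell and 4 rose in XY FOXL2+ against XY control. The count of 2 that rose was 1 without XY control replicate 1, 2 or 4 or without XY FOXL2+ replicate 3, and 0 with only the 2 groups compared. The count of 7 higher than XX control depended on single arrays. It was 12 and 11 without XY FOXL2+ replicates 1 and 2, and 2 without XY FOXL2+ replicate 3 or 4. It was 3, 2, 2 and 4 without XX control replicates 1, 2, 3 and 4, and 1 with only the 2 groups compared.

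For 30 of the 44 genes RefSeq gives a start region (build GRCm38.p6), and the 250 bases before the start were searched for 5 motifs on both strands, taking the first entry where a gene has several. The motifs were GTAAACA (forkhead, the class of FOXL2), CAAGGTCA (SF1), AACAAT (SOX), TGANTCA (AP-1) and GGGCGG (GC box). Of the genes called in XY FOXL2+ against XY control 5 have such an entry, and the 3 with the largest differences are shown 5′ to 3′ on the strand of the gene, with matches in capitals. None of the matches overlapped another.
Timp1 (chrX:20869916-20870165, + strand): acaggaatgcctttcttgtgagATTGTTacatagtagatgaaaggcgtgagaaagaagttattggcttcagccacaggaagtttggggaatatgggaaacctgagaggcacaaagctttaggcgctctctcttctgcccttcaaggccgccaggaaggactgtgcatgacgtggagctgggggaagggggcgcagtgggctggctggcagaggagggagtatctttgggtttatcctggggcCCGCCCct
Adamts17 (chr7:66839485-66839734, + strand): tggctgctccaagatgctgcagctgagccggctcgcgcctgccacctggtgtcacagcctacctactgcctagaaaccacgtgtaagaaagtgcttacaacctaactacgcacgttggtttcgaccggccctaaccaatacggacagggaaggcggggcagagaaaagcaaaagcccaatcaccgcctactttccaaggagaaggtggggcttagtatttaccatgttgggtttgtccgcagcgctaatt
Adamts1 (chr16:85803114-85803363, - strand): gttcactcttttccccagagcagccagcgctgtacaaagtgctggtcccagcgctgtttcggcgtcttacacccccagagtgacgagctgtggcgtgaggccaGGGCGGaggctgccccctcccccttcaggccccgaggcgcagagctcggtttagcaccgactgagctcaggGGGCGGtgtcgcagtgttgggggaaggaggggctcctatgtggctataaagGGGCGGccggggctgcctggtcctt
Timp1 holds a SOX match at positions -228 to -223 from the start and a GC box at -8 to -3, both on the other strand. Adamts1 holds 3 GC boxes, the nearest at -25 to -20, and Adamts17 holds none of the 5 motifs. Forkhead matches occurred in 2 of the 30 genes, Mmp10 and Mmp13 (3.09% of 27025 promoters hold one), and SF1 matches in none (1.31%). SOX matches occurred in 3 (9.65%) and GC boxes in 14 (32.9%). AP-1 matches occurred in 7 (6.87%), which were Mmp1a, Mmp1b, Mmp3, Mmp7, Mmp10, Mmp13 and Mmp20 of the chromosome 9 group. A match is a description of the letters in this window.

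Among the Adamts proteases that cut versican and related proteoglycans, Adamts5 showed the largest difference in both XY FOXL2+ and XX control against XY control. Adamts5, also known as an aggrecanase, read 9.72, 10.21, 10.54 and 10.19 in XY control, 7.28, 7.11, 8.21 and 8.57 in XY FOXL2+, and 7.08, 6.99, 6.88 and 6.92 in XX control. The 3 groups did not overlap, and within XY FOXL2+ replicates 3 and 4 were the closest to XY control. Adamts5 fell 5.18-fold in XY FOXL2+ (log2 difference -2.37, SE 0.28, adjusted p = 0.000189, exact permutation p = 0.0286, the smallest that 4 against 4 arrays allow). In XX control it was 9.16-fold lower than in XY control (-3.20, SE 0.28, adjusted p = 7.85e-06). The XX mean of 6.97 ± 0.09 lies just above the range in which the 4 Y-linked genes read there. XY FOXL2+ minus XX control was 0.82 (95% interval 0.22 to 1.43) and not called (adjusted p = 0.121), but it was called with array weights (1.12, adjusted p = 0.0109) and without XY FOXL2+ replicate 2 (1.05, adjusted p = 0.0254). The array weights of XY FOXL2+ replicates 1 to 4 were 0.30, 0.51, 1.12 and 1.18. Here and below, that setting therefore leans on replicates 3 and 4 and is not independent of leaving out replicate 1 or 2.

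Adamts1, a neighbour of Adamts5 on chromosome 16 that cuts versican and is needed for ovulation in the adult ovary, was lower in XY FOXL2+ than in both controls. It read 9.93, 10.19, 10.05 and 9.90 in XY control, 9.41, 9.51, 9.34 and 9.58 in XY FOXL2+, and 9.93, 10.12, 9.63 and 9.95 in XX control. All 4 XY FOXL2+ arrays lay below all 8 control arrays. The difference was -0.55 (SE 0.11, adjusted p = 0.00934) against XY control and -0.44 (SE 0.11, adjusted p = 0.0385) against XX control, while the controls differed by -0.11 (95% interval -0.36 to 0.14). The second of these calls ended without XY FOXL2+ replicate 1, 3 or 4 or XX control replicate 1, 2 or 4 (adjusted p = 0.0571 to 0.125), with only the 2 groups compared (0.093) and after quantile normalization (0.0546).

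Of the 7 genes of this kind, 4 fell in XY FOXL2+ against XY control and 4 were lower in XX than in XY control. Over all clusters 4.67% and 10.2% were called lower in the same order. Adamts20, known from the belted coat mutants, fell by 0.34 in XY FOXL2+ (adjusted p = 0.00588) and by 0.51 in XX control (0.000119), with means of 6.87 ± 0.02, 6.53 ± 0.08 and 6.36 ± 0.05. Those signals are in the range of silent genes, although the 3 groups did not overlap. Adamts8 fell by 0.34 in XY FOXL2+ (adjusted p = 0.0271), from 6.31 ± 0.14 to 5.97 ± 0.12, also in that range. Its call ended without XY control replicate 1 or 2 or XY FOXL2+ replicate 2 (0.0718 to 0.0832), and with only the 2 groups compared (0.0984). Adamts9, which cuts versican in the embryo, read 12.39, 12.52, 12.24 and 11.93 in XY control, 11.71, 11.74, 12.35 and 12.20 in XY FOXL2+, and 11.37, 11.58, 11.29 and 11.61 in XX control. The XX arrays lay below all others, and the XY groups overlapped. Adamts9 was 1.75-fold lower in XX than in XY control (-0.80, adjusted p = 0.0039), and XY FOXL2+ differed from neither by the test (-0.27, adjusted p = 0.413, and 0.54, adjusted p = 0.0838). The second of those was called with array weights (0.65, adjusted p = 0.0111) and without XY FOXL2+ replicate 1 (0.63, 0.0397) or 2 (0.62, 0.0419). Adamts4, another aggrecanase, had means of 6.42 ± 0.03, 6.5 ± 0.12 and 6.19 ± 0.06. It was lower in XX than in XY control (-0.23, adjusted p = 0.0476), but this call ended without any single one of the 8 arrays (0.0737 to 0.133). It was higher in XY FOXL2+ than in XX control (0.31, adjusted p = 0.027), a call that ended without XY FOXL2+ replicate 3 or 4 or any XX control array (0.0571 to 0.0905). Adamts15 was higher in XY FOXL2+ than in XX control (0.27, adjusted p = 0.0423), at 5.82 ± 0.10 against 5.55 ± 0.09. That call ended without XY FOXL2+ replicate 2, 3 or 4 or XX control replicate 1, 2 or 3 (0.0521 to 0.125).

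Adamts7 and Adamts12 cut the cartilage protein COMP, and Adamts7 was called in all 3 comparisons. It read 9.42, 9.33, 9.53 and 9.44 in XY control, 8.56, 8.21, 8.98 and 8.92 in XY FOXL2+, and 8.11, 8.17, 7.92 and 8.14 in XX control. The XY FOXL2+ arrays lay between the controls and overlapped neither, with replicate 2 close to the XX arrays. Adamts7 fell 1.70-fold in XY FOXL2+ (-0.77, SE 0.15, adjusted p = 0.00668) and was 2.55-fold lower in XX than in XY control (-1.35, SE 0.15, adjusted p = 4.03e-05). It stayed 1.5-fold higher in XY FOXL2+ than in XX control (0.58, SE 0.15, adjusted p = 0.0365), a call that ended without XY FOXL2+ replicate 3 or 4 or any single XX control array (0.0737 to 0.111). Adamts12, looked at after its values were seen, was not called by limma with the 3 groups fitted together. Its differences were 0.31 from XY control and 0.61 from XX control (adjusted p = 0.0514) in XY FOXL2+. The second was called with array weights (0.75, 0.00592), without an intensity trend (0.0461), among clusters above the median signal (0.0336), and without XY FOXL2+ replicate 1 (0.68, 0.0347) or 2 (0.74, 0.00882).

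Adamts19 was the member with the largest excess in the ovary. It encodes a secreted protease of the same family. It read 10.44, 10.35, 10.65 and 10.26 in XY control, 10.61, 11.35, 11.54 and 11.46 in XY FOXL2+, and 13.24, 13.12, 13.03 and 13.09 in XX control. XX arrays lay far above all others, and of the XY FOXL2+ arrays only replicate 1 overlapped XY control. In XX control Adamts19 was 6.48-fold higher than in XY control (2.70, SE 0.17, adjusted p = 6.98e-07). In XY FOXL2+ it rose 1.76-fold (0.82, SE 0.17, adjusted p = 0.0113, exact permutation p = 0.0571) and remained 3.68-fold below XX control (-1.88, SE 0.17, adjusted p = 0.000113). The rise was not called with only the 2 groups compared (adjusted p = 0.0542) or without XY FOXL2+ replicates 3 and 4 (0.56, adjusted p = 0.0684). That last setting was chosen after the data were seen. It leaves out the XY FOXL2+ arrays nearest XY control on the first principal component. Here and below, its p-values are descriptive only.

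Adamts16, a protease that can cut fibronectin, was also higher in the ovary and was not called between XY FOXL2+ and XY control. It read 10.81, 10.76, 10.71 and 10.32 in XY control, 10.69, 11.11, 10.61 and 10.41 in XY FOXL2+, and 11.73, 11.37, 11.33 and 11.51 in XX control. All XX arrays exceeded all XY arrays. The sex difference was 0.83 (SE 0.16, adjusted p = 0.00216), XY FOXL2+ minus XY control was 0.06 (95% interval -0.28 to 0.40), and XY FOXL2+ minus XX control was -0.78 (SE 0.16, adjusted p = 0.012). Without XY FOXL2+ replicates 3 and 4 the last was -0.58 (adjusted p = 0.113).

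Adamts6, Adamts10 and Adamts17 are linked to fibrillin microfibrils. Adamts6 was lower in the ovary, and it read 9.85, 9.82, 9.60 and 9.69 in XY control, 8.92, 9.08, 9.77 and 9.84 in XY FOXL2+, and 8.68, 8.48, 8.16 and 8.53 in XX control. The XY FOXL2+ arrays split, with replicates 3 and 4 within the XY control range and replicates 1 and 2 below it. Adamts6 was 2.43-fold lower in XX than in XY control (-1.28, SE 0.19, adjusted p = 0.000462) and 1.92-fold higher in XY FOXL2+ than in XX control (0.94, SE 0.19, adjusted p = 0.0135). XY FOXL2+ minus XY control was -0.34 (adjusted p = 0.375). It was -0.74 (adjusted p = 0.00555) without XY FOXL2+ replicates 3 and 4, a setting chosen after the data were seen. With only the 2 groups compared the excess over XX control was not called (0.0572), nor without XY FOXL2+ replicates 3 and 4 (0.54, adjusted p = 0.0748). Adamts10 had group means of 11.19 ± 0.20, 11.16 ± 0.47 and 11.05 ± 0.05 and was not called by limma with all 12 arrays. Without XY FOXL2+ replicates 3 and 4 it was lower than in XY control (-0.43, adjusted p = 0.046). Adamts17 read 8.44, 8.31, 8.54 and 8.33 in XY control, 8.60, 9.02, 9.29 and 9.18 in XY FOXL2+, and 8.95, 8.63, 8.43 and 8.74 in XX control. It rose 1.54-fold in XY FOXL2+ (0.62, SE 0.15, adjusted p = 0.0222), with no overlap with XY control and overlap with XX control. That call ended without XY control replicate 1, 2 or 4 or XY FOXL2+ replicate 3 or 4 (0.0504 to 0.0627), and with only the 2 groups compared (0.0538). The excess over XX control (0.34, adjusted p = 0.239) was called with array weights (0.47, 0.034) and without XY FOXL2+ replicate 1 (0.48, 0.0343).

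**Figure D2:**
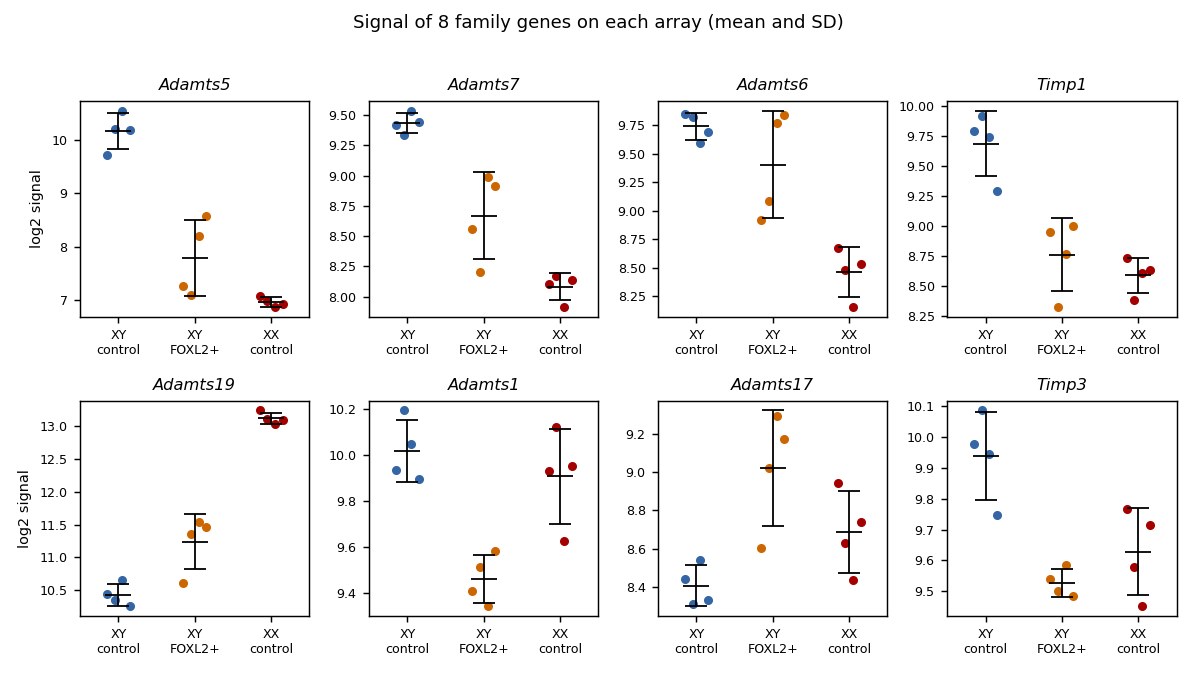
Log2 signal of 8 genes on each array (points), with group mean and SD (bars) for XY control, XY FOXL2+ and XX control, 4 arrays each. Adamts5, Adamts7 and Timp1 are lower in XY FOXL2+ than in XY control, Adamts19 is far higher in XX control, and the XY FOXL2+ arrays of Adamts6 form an upper and a lower pair.

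Timp genes encode the inhibitors, and 2 of the 4 fell in XY FOXL2+ against XY control, beside 4.67% of all clusters. Timp1, an inhibitor of most secreted Mmp enzymes, read 9.80, 9.92, 9.75 and 9.30 in XY control, 8.95, 8.33, 8.77 and 9.0 in XY FOXL2+, and 8.73, 8.39, 8.61 and 8.64 in XX control. All XY FOXL2+ arrays lay below all XY control arrays and overlapped those of XX control. Timp1 fell 1.90-fold in XY FOXL2+ (-0.93, SE 0.16, adjusted p = 0.00386) and was 2.14-fold lower in XX than in XY control (-1.10, SE 0.16, adjusted p = 0.000388). XY FOXL2+ and XX control differed by 0.17 (95% interval -0.18 to 0.52, adjusted p = 0.646), which leaves room for a difference of either sign. Timp3, which binds to the matrix and also blocks ADAMTS proteases, read 9.98, 10.09, 9.94 and 9.75 in XY control, 9.54, 9.50, 9.59 and 9.48 in XY FOXL2+, and 9.77, 9.58, 9.45 and 9.71 in XX control. It fell by 0.41 in XY FOXL2+ (SE 0.10, adjusted p = 0.0214) and was lower in XX than in XY control (-0.31, SE 0.10, adjusted p = 0.0426). The first call ended without XY control replicate 1, 2 or 3 (0.0607 to 0.0651), with only the 2 groups compared (0.0577) and after quantile normalization (0.0709). The second ended without XY control replicate 1, 2 or 3 or XX control replicate 2, 3 or 4 (0.06 to 0.133) and after quantile normalization (0.15). Timp2, the partner of Mmp14 in activating Mmp2, read 11.42 ± 0.10, 11.53 ± 0.14 and 11.35 ± 0.15, and Timp4 read 6.07 ± 0.03, 6.01 ± 0.08 and 6.06 ± 0.14. Neither was called in any comparison, and none of the 4 Timp genes was called between XY FOXL2+ and XX control by limma, with 0 at an unadjusted p under 0.05. With 4 genes, a count of 0 is near the 5.51% called over all clusters.

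Of the 22 Mmp genes, 4 were lower and 2 higher in XX than in XY control, none by 2-fold or more (4.32% of all clusters). The share called was 27.3%, beside 17.4% of all clusters and 28.6% of those above the median signal. So near these shares, the count shows no sex difference particular to the Mmp genes. Mmp2, gelatinase A, read 15.15, 15.11, 14.86 and 14.85 in XY control, 14.93, 14.58, 15.04 and 15.01 in XY FOXL2+, and 14.36, 14.39, 14.14 and 14.59 in XX control. The XY groups overlapped each other, and only XY FOXL2+ replicate 2 reached into the XX range. Mmp2 was lower in XX than in XY control (-0.62, SE 0.12, adjusted p = 0.0033) and higher in XY FOXL2+ than in XX control (0.52, SE 0.12, adjusted p = 0.0283), while XY FOXL2+ and XY control differed by -0.10 (95% interval -0.37 to 0.17). The excess over XX control ended without XY FOXL2+ replicate 3 or 4 or XX control replicate 1, 2 or 3 (0.0648 to 0.0917), with only the 2 groups compared (0.0716) and after quantile normalization (0.0574).

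Mmp19 and Mmp11 were lower in the ovary as well. Mmp19 read 6.94, 6.86, 7.06 and 7.05 in XY control, 6.43, 6.22, 7.04 and 7.21 in XY FOXL2+, and 6.08, 5.97, 5.88 and 6.04 in XX control. XY FOXL2+ replicates 3 and 4 lay at the XY control level or above it and replicates 1 and 2 below. Mmp19 was 1.98-fold lower in XX than in XY control (-0.98, SE 0.18, adjusted p = 0.00167), with an XX mean where silent genes read. It was higher in XY FOXL2+ than in XX control (0.73, SE 0.18, adjusted p = 0.0315). That call ended without XY FOXL2+ replicate 3 or 4 or any XX control array (0.0573 to 0.0926), and with only the 2 groups compared (0.0954). XY FOXL2+ minus XY control was -0.25 (adjusted p = 0.48). It was -0.65 (adjusted p = 0.00131) without XY FOXL2+ replicates 3 and 4, a setting chosen after the data were seen. Mmp11, stromelysin 3, which the convertase furin activates inside the cell, read 12.32, 12.33, 12.58 and 12.52 in XY control, 12.01, 11.75, 13.04 and 12.91 in XY FOXL2+, and 11.92, 11.34, 11.25 and 11.46 in XX control. The XY FOXL2+ arrays again formed an upper pair, replicates 3 and 4, above every XY control array. The sex difference of Mmp11 was -0.95 (SE 0.25, adjusted p = 0.0204), which was not called without XY control replicate 3 or 4 or XX control replicate 2 or 3 (0.0516 to 0.0622). XY FOXL2+ minus XX control was 0.93 (adjusted p = 0.0518), and was called without XY FOXL2+ replicate 1 (1.08, 0.0302), XY FOXL2+ replicate 2 (1.16, 0.00747) or XX control replicate 1 (1.08, 0.0466), with array weights (1.22, 0.00273) and among clusters above the median signal (0.036).

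The 5 membrane-type enzymes were not called between the sexes with the 3 groups fitted together. So few genes cannot be told from the 17.4% called over all clusters. Mmp14, which activates Mmp2 at the cell surface and cuts collagen, read 13.34, 13.43, 13.47 and 13.38 in XY control, 13.59, 13.52, 13.98 and 13.99 in XY FOXL2+, and 13.88, 13.60, 13.33 and 13.63 in XX control. All XY FOXL2+ arrays exceeded all XY control arrays, but the difference of 0.37 (95% interval 0.08 to 0.65) was not called (adjusted p = 0.129, exact permutation p = 0.0286). With array weights it was 0.45 (adjusted p = 0.0435). Mmp16 read 9.02, 9.22, 9.11 and 9.04 in XY control, 9.39, 9.19, 10.003 and 10.07 in XY FOXL2+, and 8.94, 8.70, 8.47 and 8.79 in XX control. Replicates 3 and 4 of XY FOXL2+ were the highest of all 12 arrays. Mmp16 was 1.92-fold higher in XY FOXL2+ than in XX control (0.94, SE 0.18, adjusted p = 0.00935), and 0.57 above XY control without a call (adjusted p = 0.0855). That second difference was called after quantile normalization (0.67, 0.0422), with array weights (0.74, 0.0114) and without XY FOXL2+ replicate 2 (0.72, 0.0203). With only the 2 groups compared the sex difference of -0.37 was called (0.0227).

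Mmp23 and Mmp28 were higher in the ovary. Mmp23, a small metalloprotease held in the membrane until it is cut, read 7.86, 8.0, 8.02 and 7.79 in XY control, 8.62, 8.32, 8.37 and 8.01 in XY FOXL2+, and 8.71, 8.41, 8.48 and 8.49 in XX control. XY FOXL2+ overlapped both controls through single arrays. The sex difference was 0.60 (SE 0.12, adjusted p = 0.00361), and XY FOXL2+ minus XY control was 0.41 (SE 0.12, adjusted p = 0.0637). The latter was called without XY FOXL2+ replicate 4 (0.52, 0.0133), after quantile normalization (0.50, 0.0441), among clusters above the median signal (0.0417), and without XY FOXL2+ replicates 3 and 4 (0.55, 0.013). Mmp28, epilysin, read 7.47, 7.58, 7.37 and 7.27 in XY control, 7.17, 7.11, 7.23 and 7.19 in XY FOXL2+, and 7.63, 7.70, 7.64 and 7.72 in XX control. The groups did not overlap, with XY FOXL2+ lowest and XX control highest. XY FOXL2+ was lower than XX control (-0.50, SE 0.08, adjusted p = 0.00308), and its difference of -0.25 from XY control was not called (adjusted p = 0.0841; without XY control replicate 4, -0.30 and 0.0483). The sex difference of 0.25 (adjusted p = 0.0471) was not called without any of XY control replicates 1, 3 and 4 or of the 4 XX control arrays (0.0702 to 0.128). Mmp8 was called lower in XX than in XY control (-0.21, adjusted p = 0.0491), from 5.06 ± 0.09 to 4.85 ± 0.07, levels at which a signal is not shown. The call ended without XY control replicate 1, 2 or 4 or any XX control array (0.0628 to 0.132) and in 4 other settings.

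**Figure D3:**
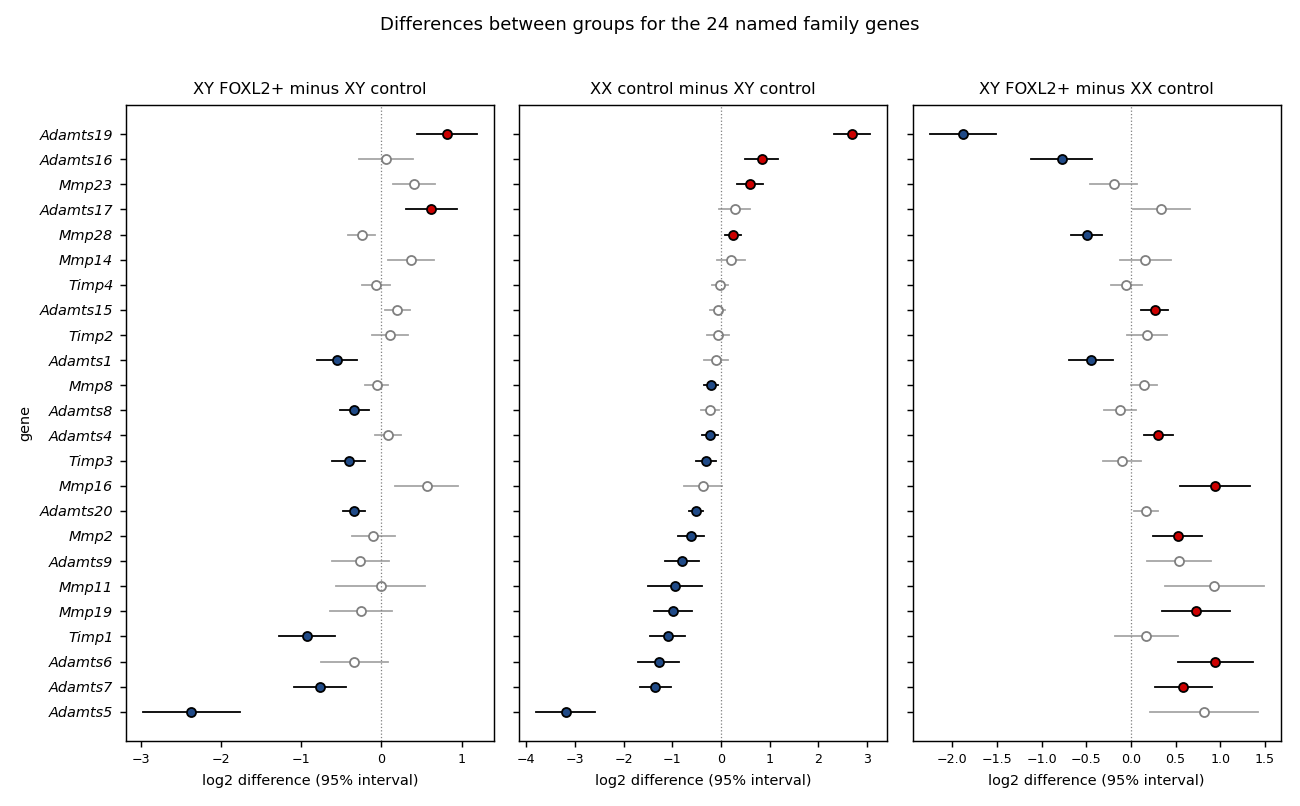
Log2 differences with 95% intervals for the 24 named genes in the 3 comparisons, where filled points are called at an adjusted p under 0.05 (red higher, blue lower in the first group of the title) and open points are not. Adamts5 and Adamts19 mark the ends in the sex difference, and Timp1, Adamts7 and Adamts5 fall in the same direction in both XY FOXL2+ and XX control against XY control.

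The other 20 genes, Adamts10 and Adamts12 among them, were not called by limma with the 3 groups fitted together to all 12 arrays. Their differences ran from -0.15 to 0.41 in XY FOXL2+ minus XY control, from -0.30 to 0.28 in XX control minus XY control and from -0.09 to 0.61 in XY FOXL2+ minus XX control, and the smallest adjusted p was 0.0514. They include the procollagen proteinases Adamts3 and Adamts14 and the von Willebrand factor protease Adamts13. Under other settings 4 of the 20 were called, and besides Adamts10 and Adamts12 these were Adamts3 and the membrane-type Mmp25, named after their values were seen. Adamts3 was higher in XX than in XY control with only the 2 groups compared (0.28, adjusted p = 0.0488) and with array weights (0.31, 0.0379), and higher in XY FOXL2+ than in XY control without XY FOXL2+ replicates 3 and 4 (0.67, 0.00709). Mmp25 was higher in XY FOXL2+ than in XX control with array weights (0.33, adjusted p = 0.0147) and without XY FOXL2+ replicate 1 (0.31, 0.0485) or 2 (0.32, 0.0313).

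Partners of the families were read from 5 lists with 51 measured genes, covering activators, other genes tied to inhibition or uptake, related metalloproteases, ADAMTS-like proteins and substrates. In XY FOXL2+ against XY control 7 fell and 2 rose (17.6%, beside 7.12% of all clusters and 11.9% of those above the median signal, where most partner genes lie). In XX against XY control 17 were lower and 6 higher (45.1%, beside 17.4% and 28.6% in the same order). In XY FOXL2+ against XX control 7 were higher and 3 lower (19.6%, beside 5.51% and 9.33%). The 6 became 3 without XY control replicate 4 or XX control replicate 1. The 7 higher than XX control became 13 without XY FOXL2+ replicate 2, 3 without XY FOXL2+ replicate 3 or 4, and 4 without XX control replicate 2, 3 or 4. The 3 lower became 1 without XY FOXL2+ replicate 3 or 4 or XX control replicate 1, 2 or 4.

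Substrates, 15 of the 51 partner genes, held 5 of the 9, 11 of the 23 and 7 of the 10 calls in the same order. Versican, encoded by Vcan and a shared substrate of Adamts1, Adamts4, Adamts5, Adamts9 and Adamts20, read 13.08, 13.16, 12.95 and 12.89 in XY control, 12.99, 11.74, 14.03 and 14.10 in XY FOXL2+, and 9.69, 9.50, 9.34 and 9.95 in XX control. All XY FOXL2+ arrays lay above all XX arrays, with replicates 3 and 4 above XY control and replicate 2 below. Vcan was 10.6-fold lower in XX than in XY control (-3.40, SE 0.40, adjusted p = 6.89e-05) and 12.1-fold higher in XY FOXL2+ than in XX control (3.60, SE 0.40, adjusted p = 0.000359). XY FOXL2+ and XY control differed by 0.19 (95% interval -0.67 to 1.06). In the same XY FOXL2+ arrays Adamts5 was 5.18-fold below XY control, as given above.

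Of 15 substrates, 4 fell and 1 rose in XY FOXL2+, and 10 were lower and 1 higher in XX control, both against XY control. Over all clusters 4.67% were called lower and 2.46% higher in XY FOXL2+, and 10.2% lower and 7.17% higher in XX control. The basement membrane collagen gene Col4a1 read 11.29 ± 0.10, 9.89 ± 0.26 and 9.43 ± 0.13 in XY control, in XY FOXL2+ and in XX control and fell by 1.40 in XY FOXL2+ (adjusted p = 1.74e-05). Col4a2 fell by 1.18 (adjusted p = 0.000109). Bcan, brevican, fell by 0.97 (adjusted p = 8.52e-05), from 6.97 ± 0.19 to 6.00 ± 0.16, where silent genes read. The remaining calls, named after their values were seen, were fibronectin, Fn1 (-0.70, adjusted p = 0.00977), and fibrillin 2, Fbn2, which rose (0.93, adjusted p = 0.00341). Col1a2, Nid1 and Vcan stayed higher in XY FOXL2+ than in XX control, by 1.11 (adjusted p = 0.00679), 1.15 (0.0043) and 3.60. Without XY FOXL2+ replicates 3 and 4, Col1a2 (-0.80, adjusted p = 0.00742) and Nid1 (-0.63, 0.00423) were called lower than in XY control, against -0.39 and -0.20 with all arrays. Those arrays were left out after the data were seen, so these p-values are descriptive only.

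Activators did not pass in XY FOXL2+ against XY control by limma (0 of 10 called, 2 at an unadjusted p under 0.05). A count of 0 of 10 is near the 7.12% called over all clusters and is no result about this list. The convertase gene Pcsk5 read 10.44, 10.28, 10.39 and 10.29 in XY control, 9.07, 8.38, 10.16 and 10.20 in XY FOXL2+, and 8.45, 8.24, 8.20 and 8.37 in XX control. Replicates 3 and 4 of XY FOXL2+ sat just below XY control and replicate 2 within the XX range. Pcsk5 was 4.09-fold lower in XX than in XY control (-2.03, SE 0.31, adjusted p = 0.000539), and XY FOXL2+ minus XY control was -0.90 (adjusted p = 0.121). The latter was called without XY FOXL2+ replicate 3 (-1.13, 0.0396), without replicate 4 (-1.15, 0.0374) and without both (-1.62, 7.89e-05). Leaving out both was chosen after the data were seen, and these arrays lay nearest XY control, so its p-value is descriptive only. The related convertase gene Pcsk6 was 2.20-fold higher in XX than in XY control (1.14, adjusted p = 0.00199) and read 11.20, 11.92, 10.72 and 10.72 in XY FOXL2+ (0.56 above XY control, adjusted p = 0.152). Without XY FOXL2+ replicates 3 and 4 it was 0.98 above XY control (adjusted p = 0.00277). Plat, tissue plasminogen activator, was higher in XX than in XY control (0.89, adjusted p = 0.035). Its call ended without XY control replicate 1, 3 or 4 or any XX control array (0.0581 to 0.0999).

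The list of genes tied to inhibition or uptake and that of related proteases included 2 genes that fell by 2-fold or more in XY FOXL2+. These lists hold 9 and 11 genes, and 1.68% of all clusters were called at 2-fold or more in either direction. A place on the first list does not mean that a gene encodes a protease inhibitor. Spock2, testican 2, a matrix proteoglycan, read 8.71, 8.70, 8.90 and 8.93 in XY control, 7.14, 7.15, 7.16 and 7.44 in XY FOXL2+, and 7.29, 7.30, 7.22 and 7.34 in XX control. It fell 3.01-fold in XY FOXL2+ (-1.59, SE 0.09, adjusted p = 4.6e-07), and XY FOXL2+ and XX control differed by -0.07 (95% interval -0.27 to 0.13). Tll1, a tolloid-like protease that processes procollagens, fell 2.12-fold in XY FOXL2+ (-1.08, SE 0.08, adjusted p = 4.62e-06), from 6.75 ± 0.13 to 5.66 ± 0.13, with 5.52 ± 0.03 in XX control, all within or below the range of silent genes. Adam10, a membrane sheddase, rose 1.44-fold in XY FOXL2+ (0.53, adjusted p = 0.00815) and was 1.98-fold higher in XX than in XY control (0.99, adjusted p = 3.31e-05). Adam19 fell in XY FOXL2+ (-0.57, adjusted p = 0.00409), a gene named after its values were seen. Papln, papilin, which carries ADAMTS-like domains, was 1.75-fold higher in XX than in XY control (0.81, adjusted p = 5.47e-05) and lower in XY FOXL2+ than in XX control (-0.73, adjusted p = 0.000798). It differed by 0.08 between XY FOXL2+ and XY control (95% interval -0.12 to 0.28). Lrp1, the receptor that takes up proteases and their inhibitors, was lower in XX than in XY control (-0.63, adjusted p = 0.00425), as was Adamtsl1, an ADAMTS-like protein without a protease domain (-0.66, adjusted p = 0.00657). None of the 6 ADAMTS-like genes was called in XY FOXL2+ against XY control by limma, with 0 at an unadjusted p under 0.05. With 6 genes, a count of 0 is near the 7.12% called over all clusters. Reck, a membrane-anchored Mmp inhibitor, read 11.15 ± 0.16, 11.39 ± 0.11 and 11.21 ± 0.11.

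**Figure D4:**
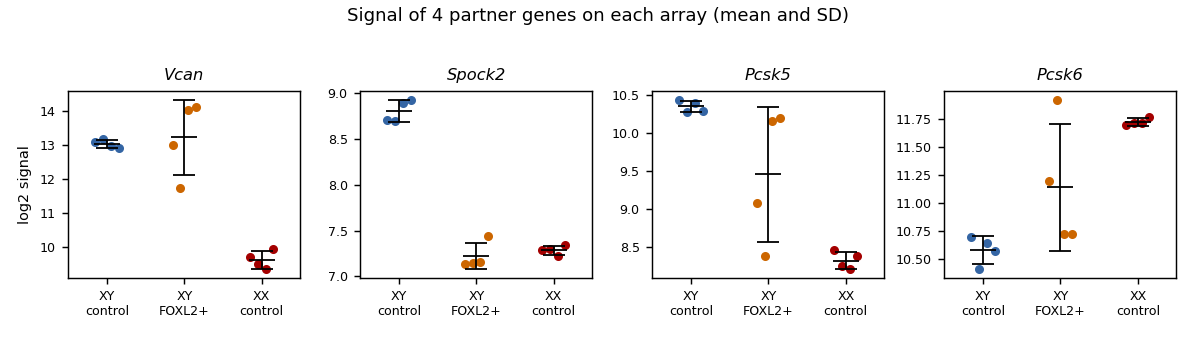
Log2 signal of 4 partner genes on each array (points), with group mean and SD (bars), for XY control, XY FOXL2+ and XX control. Vcan stays near or above the XY control level in 3 of 4 XY FOXL2+ arrays, Spock2 in XY FOXL2+ overlaps XX control and lies below XY control, and Pcsk5 and Pcsk6 vary widely among the XY FOXL2+ arrays.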

How the data were processed

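The study measured RNA on Affymetrix Mouse Transcriptome 1.0 arrays, and per the labels' protocols 100 ng of total RNA was amplified and biotin-labelled for each array. From their range, the deposited values were read as log2 signal. The background correction, normalization and log base of the authors were not given in the sources used here. Another base would rescale every difference and leave the tests unchanged.

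From 72688 entries, 6732 control probe sets were left out and 65956 clusters tested without a filter. Platform symbols were updated with RefSeq's table (31258 clusters with 1 symbol, 1492 with several, 33206 unnamed). The 3 groups were fitted together with limma 3.58.1 in R 4.3.3 (lmFit, eBayes with an intensity trend, 9 residual degrees of freedom), two-sided, with Benjamini-Hochberg adjustment over all clusters. Each gene thus had 1 estimate of spread for all groups, which can understate the spread of XY FOXL2+. Single genes were also tested by exact two-sided permutation (70 assignments). On simulated data for XY FOXL2+ minus XY control, 87% of 200 clusters changed by 1 log2 unit among 65956 were recovered, and 9 unchanged clusters were called. The simulated noise was normal, with the same spread in all groups. In the data the median SD over all clusters was 0.16 in XY FOXL2+, 0.13 in XY control and 0.12 in XX control. The 87% is therefore a check of the code and not the power of this comparison. Alternatives were 2-group fits, quantile normalization, array weights, no trend, clusters above the median signal, a replicate block, leaving out each array, and, added later, leaving out XY FOXL2+ replicates 3 and 4.

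Named genes were members called in any comparison, all Timp genes and the 5 members of highest mean signal, with partner genes called and at least 1.5-fold apart (up to 3 per list and comparison). Members and lists were chosen with earlier results of these data known. Same-numbered replicates did not deviate together (correlations -0.09 to 0.18), so the numbers were not used as pairs. Precision is limited by the number of arrays.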

Additional observations from a re-analysis of the deposited data

Results flagged for a closer look

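Among the 24 named genes in 3 groups of 4 arrays, 1 of 72 groups held an array far from the other 3, where chance gives about 1 in 20. Timp4 read 5.84 on XX control replicate 1 against 6.11 to 6.15 on the other XX arrays, at a level where a signal above background is not shown. Timp4 was called in no comparison.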

How the results depend on the processing

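No named difference that was called changed its sign in any alternative. In XY FOXL2+ minus XY control, 5 of 9 calls held in all 15 alternatives (Adamts1, Adamts5, Adamts7, Adamts20 and Timp1). In XX control minus XY control 11 of 16 held in all 14, and in XY FOXL2+ minus XX control 3 of 11 held in all 15 (Adamts19, Mmp16 and Mmp28). Members that rose against XY control were 2, and 0 with only the 2 groups compared, 4 after quantile normalization, 4 with array weights and 1 with the replicate block. Members higher than XX control were 7, and 1 with only the 2 groups compared, 13 with array weights and 3 with the replicate block. Without XY FOXL2+ replicates 3 and 4, chosen after seeing the data, members lower than XY control were 11 in place of 7, those higher than XX control 1 and those lower than XX control 2 in place of 4, while partner genes were 5 higher and 16 lower than XY control in place of 2 and 7, and 4 higher and 1 lower than XX control in place of 7 and 3. Partner genes higher and lower than XX control were 3 and 1 with only the 2 groups compared, and 15 and 5 with array weights. The median of members in XX control minus XY control was -0.26 in place of -0.10 among clusters above the median signal, where 24 of 44 members remain. Leaving out each array gave 1 to 3 members higher and 5 to 8 lower than XY control in XY FOXL2+, 3 to 4 higher and 8 to 10 lower in XX than in XY control, and 2 to 12 higher and 3 to 4 lower than XX control in XY FOXL2+. Partner genes ranged over 2 to 3 and 7 to 8, 3 to 5 and 17 to 18, and 3 to 13 and 1 to 4, and the medians of members over -0.01 to 0.05, -0.12 to -0.07 and 0.08 to 0.14, in the same order of comparisons. Under the replicate block the calls of Adamts8 (0.0517) and Adamts17 (0.0528) against XY control, of Adamts4 (0.0874), Mmp28 (0.0928) and Timp3 (0.0755) in the sex difference, and of Adamts4 (0.0592), Adamts7 (0.0514), Adamts15 (0.0532) and Mmp2 (0.0551) against XX control ended. With all 12 arrays, 23 genes were called in no comparison, and 20 of them were not named genes. Of these 20, 4 were called under some alternative, as was the named gene Mmp14 with array weights, as given with their values above. Fits of only the 2 groups compared left each difference unchanged and altered only its estimate of spread and its p-value. The cause of the other moves was not tested. Averaging several clusters of a gene was not run, since each member has 1 cluster. Array signal near the floor limits what can be read for 22 of the 44 genes.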
